A study of Homo sapiens with 12 samples.

Results

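This account compares MOLM-14 cells kept with ASLAN003 for 96 h, in 3 libraries, with MOLM-14 cells kept with the solvent DMSO for the same 96 h, in 3 libraries. These are 6 of the 12 RNA sequencing libraries of the series, chosen by cell line and treatment alone. The other 6 libraries hold KG-1 cells, a further acute myeloid leukaemia line, given DMSO or ASLAN003 for the same time. A gene was tested where it reached 1 FPKM in at least 3 of the 6 MOLM-14 libraries, which held for 12334 of the 13881 genes in the table; 68 of those passed through the libraries of 1 group alone. FPKM is a fragment count scaled by transcript length and by the library's total, so it can be set side by side between genes. MOLM-14 is an established human monoblastic leukaemia line that carries a KMT2A-MLLT3 fusion and an internal tandem duplication of FLT3, and every library compared here shares that background and the same serum-containing medium. The labels state no dose of ASLAN003. The labels call the treatments triplicated and name no separate cultures, so p-values here reflect the spread from library to library alone, and that spread may be technical.

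ASLAN003 inhibits dihydroorotate dehydrogenase (DHODH), the enzyme of the inner mitochondrial membrane that turns dihydroorotate into orotate, the ring from which UMP and then all other pyrimidine nucleotides are made. Cells that grow fast rely on this route, and cells that take up uridine can partly bypass it. In myeloid leukaemia cells, DHODH inhibitors are known for lifting the block in maturation, after which cells take on features of monocytes or granulocytes such as surface CD11b. The series asks how the transcriptome of 2 leukaemia lines differs after such treatment.

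The libraries held an estimated 17550000 to 18200000 fragments each, read from the spacing of low FPKM values in genes with a single transcript, where 75% to 80.6% of low values lay within 0.15 of a whole fragment. The ASLAN003 libraries did not form a tight group. The first principal component of the 6 libraries, with 39.3% of the variance, placed DMSO at -29.5 to -22.7 and ASLAN003 libraries 1, 2 and 3 at 43.1, 24.7 and 7.54, and the second, with 24.6%, split ASLAN003 library 1 (-30.7) from library 2 (41.6). Among 9948 genes whose mean reached 5 FPKM in either group, 236 lay at least 1 log2 unit outside both other ASLAN003 libraries in library 1, against 161 in library 2 and 109 in library 3. Main results are therefore given with and without ASLAN003 library 1. Line markers matched the label: FLT3 stood at 96.3, 99.8 and 108 FPKM in DMSO libraries 1, 2 and 3, HOXA9 at 80.0, 66.3 and 61.4, and CD33 at 41.6, 42.4 and 37.4, while the stem cell marker CD34 stayed at or under 0.09 FPKM in all 6.

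After ASLAN003, 388 genes were called higher and 113 lower, which is 3.15% and 0.916% of the genes tested (limma on log2(FPKM + 1), Benjamini-Hochberg adjusted p under 0.05). Together these 501 are 4.06% of the genes tested. Of them, 208 were at least 2-fold higher (1.69%) and 33 at least 2-fold lower (0.268%). The shares called over all genes, 3.15% higher and 0.916% lower, are the background for every count of called list members below. The median change over all genes was 0.09 on the log2 scale. The ASLAN003 and DMSO libraries did not overlap in any of the 501 called genes, while 27.1% of all genes tested showed no overlap. With 3 libraries per group a called gene can seldom overlap, so this adds no support beyond the call. Without ASLAN003 library 1 the calls were 366 higher (2.97%) and 166 lower (1.35%), 532 in all (4.31%), and 407 genes were called the same way in both fits, which is 81.2% of the calls with all libraries and 76.5% of those without library 1. Leaving out DMSO library 1, 2 or 3 cut the calls to 117, 95 and 103 higher and 14, 8 and 12 lower. The balance of calls moved with the scaling: 77.4% of calls were higher on the deposited scale, 53.9% (236 higher, 202 lower) with each library centred on its median, 70.7% (241 and 100) after quantile normalization, 64.9% (303 and 164) with libraries rescaled without ribosomal protein genes, and 88.5% (802 and 104) with libraries rescaled after histone, mitochondrial, ribosomal RNA and small RNA genes were left out. Relative to the deposited scale these moved the median of all genes by -0.15, -0.12, -0.05 and 0.12 log2 units.

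**Figure D1:**
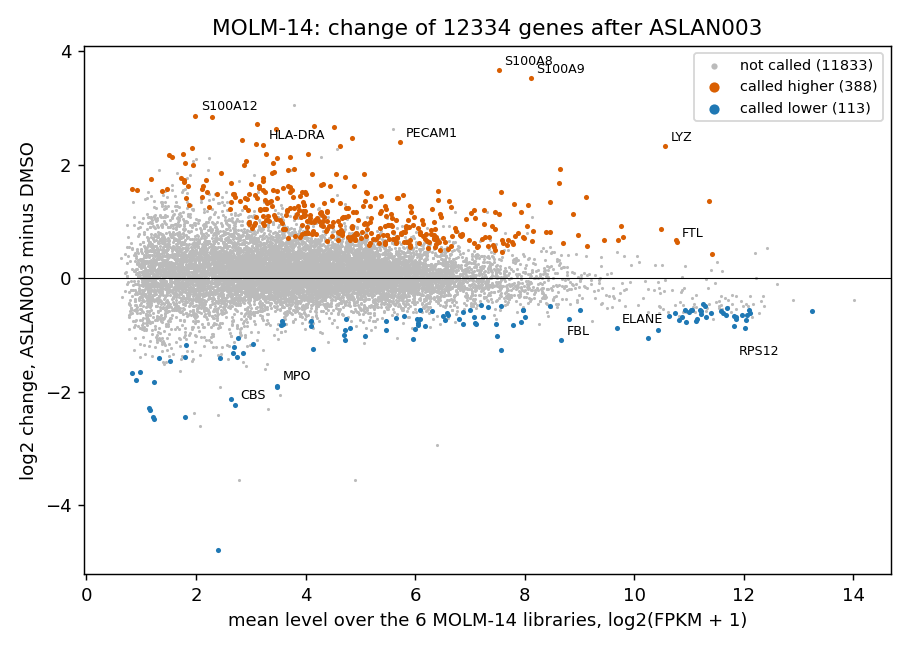
Change of each of 12334 genes (log2, ASLAN003 minus DMSO, vertical axis) against its mean level over the 6 MOLM-14 libraries (log2(FPKM + 1), horizontal axis), with 388 genes called higher in orange, 113 called lower in blue and the others in grey. S100A8 and S100A9 stand highest, LYZ combines a high level with a large rise, and a group of very abundant genes at the right, RPS12 among them, lies below 0.

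The largest rises were in genes that mature myeloid cells use for antimicrobial and calcium-binding proteins. S100A8 and S100A9 encode the subunits of calprotectin, which neutrophils and monocytes hold in their cytosol in bulk, and S100A12 a related alarmin. All 3 lie within one cluster on chromosome 1 (GRCh38, GENCODE 29): S100A9 at 153357854 to 153361027, S100A12 at 153373706 to 153375649 and S100A8 at 153390032 to 153391188. S100A8 stood at 58.7, 49.6 and 45.1 FPKM in DMSO libraries 1, 2 and 3 and at 1569, 443 and 410 FPKM in ASLAN003 libraries 1, 2 and 3. S100A9 stood at 111, 72.5 and 65.7 FPKM with DMSO and at 2102, 667 and 591 FPKM with ASLAN003. S100A12 was listed at 0, 1.75 and 0.16 FPKM with DMSO and at 11.3, 12.9 and 6.21 FPKM with ASLAN003. Every treated library exceeded every control library for the 3 genes, and ASLAN003 library 1 stood far above libraries 2 and 3 for S100A8 and S100A9 but not for S100A12. The log2 changes were 3.67 (SE 0.49, adjusted p = 0.0141) for S100A8, 3.52 (SE 0.48, adjusted p = 0.0146) for S100A9 and 2.86 (SE 0.43, adjusted p = 0.0116) for S100A12. Without ASLAN003 library 1 they were 3.04 (adjusted p = 8.29e-05), 2.94 (adjusted p = 0.000835) and 2.76 (adjusted p = 0.0269).

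Other leading rises came from varied roles. LGALS3, which encodes the carbohydrate-binding protein galectin-3 of macrophages, stood at 12.6, 9.58 and 11.9 FPKM with DMSO and at 81.2, 66.8 and 56.3 FPKM with ASLAN003, a log2 change of 2.48 (SE 0.18, adjusted p = 0.000803). SLPI, a secreted inhibitor of neutrophil elastase, stood at 9.89, 8.16 and 6.49 FPKM with DMSO and at 72.1, 55.9 and 45.6 FPKM with ASLAN003, a change of 2.67 (SE 0.21, adjusted p = 0.000847). PTAFR, the receptor for platelet-activating factor, stood at 2.21, 1.93 and 2.05 FPKM with DMSO and at 19.4, 14.7 and 13.3 FPKM with ASLAN003, a change of 2.44 (SE 0.22, adjusted p = 0.00139). In these 3 genes the treated libraries lay close together and far from the controls. HK3, the hexokinase of myeloid cells, rose by 2.84 (adjusted p = 0.0167), but its ASLAN003 library 3 stood at 4.52 FPKM against 19.5 and 19.0 in libraries 1 and 2. MLPH, known for melanosome transport, rose by 2.67, S100P by 2.63, and OLIG1, a transcription factor known from oligodendrocytes, by 2.33. TREM1, an activating receptor of neutrophils and monocytes, rose by 2.18 (2.44 without ASLAN003 library 1). Of the 10 genes of the S100 family that were tested, 8 rose and none fell, against 3.15% higher over all genes. The family was looked at after its values were seen. S100A8, S100A9, S100A12 and S100P among the 8 were already leading rises, and S100A1 and S100A13 were not called. Of the 11 genes from S100A8 to TREM1 named here, LGALS3, SLPI, PTAFR, OLIG1 and TREM1 kept their call with any 1 library left out. The other 6 lost it without 1 or more of the DMSO libraries 1, 2 and 3 (adjusted p from 0.0567 to 0.0848), and S100P also without ASLAN003 library 1 (adjusted p = 0.0627) or 2 (adjusted p = 0.0755).

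**Figure D2:**
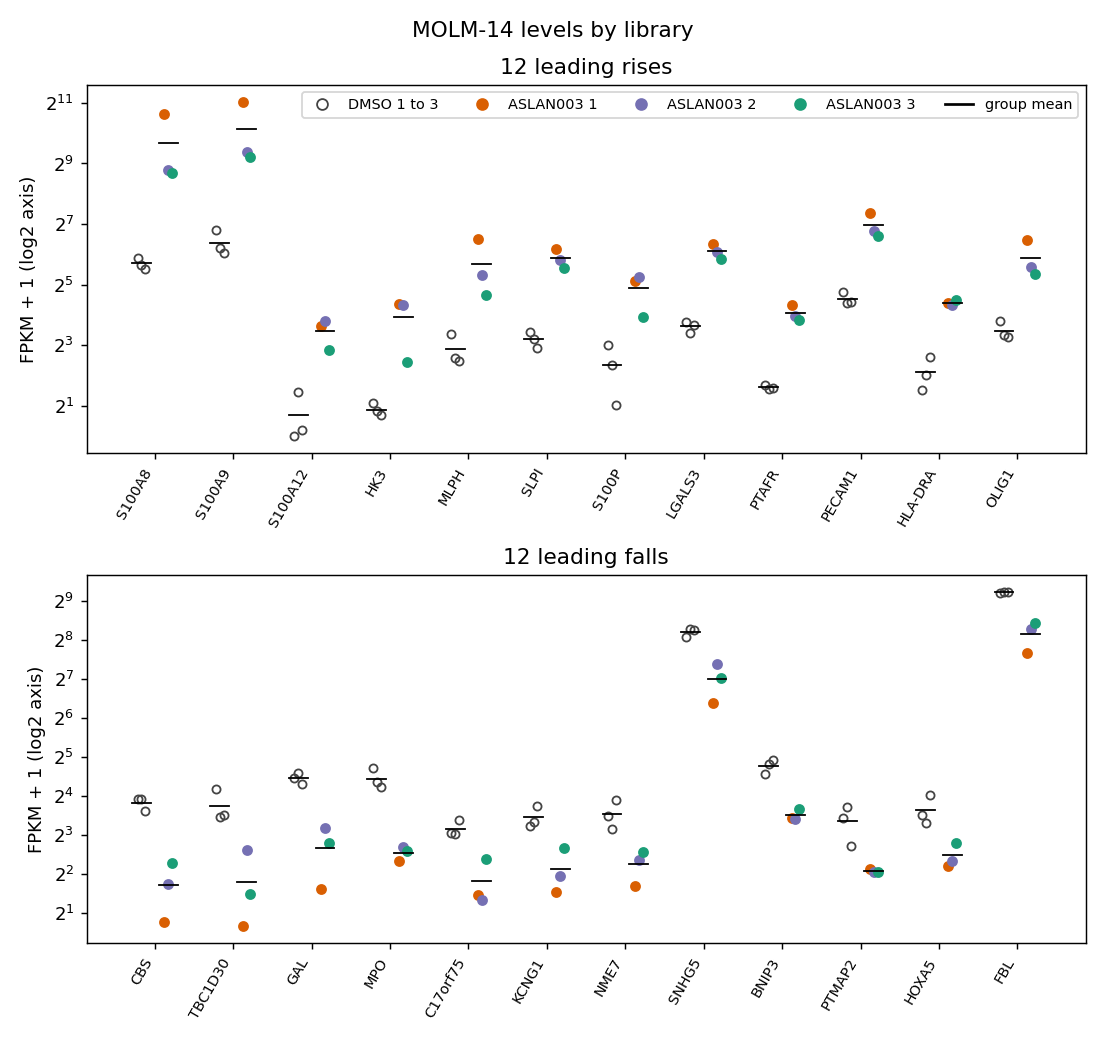
Levels in every MOLM-14 library (FPKM + 1, log2 axis) of the 12 genes with the largest called rises (upper panel) and the 12 with the largest called falls (lower panel), with DMSO libraries as open circles, ASLAN003 libraries 1 to 3 as filled circles in 3 colours and group means as bars. The genes were chosen for groups that do not overlap, and ASLAN003 library 1 is the farthest from the controls in S100A8, S100A9, MLPH, CBS and FBL.

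Of 40 listed markers of monocytes and macrophages, 15 were tested; 9 of these rose and none fell, against 3.15% higher over all genes, with a median change of 1.12 against 0.09 over all genes, and without ASLAN003 library 1 again 9 rose, with a median of 0.97. LYZ, which encodes lysozyme, stood at 682, 657 and 682 FPKM with DMSO and at 4005, 2826 and 3401 FPKM with ASLAN003. CD36, a scavenger receptor for lipids and dying cells, stood at 10.6, 11.9 and 8.12 FPKM with DMSO and at 35.3, 27.0 and 39.7 FPKM with ASLAN003. CD86, a co-stimulatory ligand for T cells, stood at 2.38, 3.18 and 2.94 FPKM with DMSO and at 12.2, 7.69 and 9.71 FPKM with ASLAN003. None of the 3 overlapped between treatments, and LYZ in particular was almost flat over the DMSO libraries. The changes were 2.32 (SE 0.13, adjusted p = 0.000218) for LYZ, 1.64 (SE 0.20, adjusted p = 0.00628) for CD36 and 1.49 (SE 0.24, adjusted p = 0.0141) for CD86. The lysosomal membrane protein gene CD68 rose by 1.13, the inhibitory receptor gene LILRB4 by 1.25 and the scavenger receptor gene MARCO by 1.55. Defining monocyte genes were not uniform: CD14 was under the level for testing, at 0 to 0.85 FPKM with DMSO and 3.98, 0.71 and 0.54 FPKM with ASLAN003, and CSF1R, the receptor for macrophage colony-stimulating factor, differed by 1.12 (adjusted p = 0.124) with 20.9, 8.94 and 7.60 FPKM against 5.51, 5.79 and 3.11 FPKM. FCGR1A differed by 0.45 (adjusted p = 0.108). Leaving out DMSO library 1, 2 or 3 left 5, 3 and 4 markers called, and ASLAN003 library 2 left 6; LYZ, CD36 and LILRB4 were called each time.

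Genes listed under azurophil, or primary, granules split in direction. The list is broader than that class, as RNASE2, RNASE3, SERPINB1 and CST7 are not specific to azurophil granules. These granules are filled at the promyelocyte stage, and their genes are known to be switched off as granulocytes and monocytes mature. Of 17 listed genes 13 were tested, 7 rose and 2 fell, against 3.15% higher and 0.916% lower over all genes. The median change was 0.86, and the same counts were found without ASLAN003 library 1. RNASE2, a ribonuclease of eosinophils and monocytes, stood at 360, 323 and 338 FPKM with DMSO and at 1005, 903 and 846 FPKM with ASLAN003. BPI, which binds bacterial lipopolysaccharide, stood at 2.4, 3.01 and 2.57 FPKM with DMSO and at 19.7, 11.0 and 13.6 FPKM with ASLAN003. Both were higher in each treated library, by 1.43 (SE 0.11, adjusted p = 0.000803) and 2.07 (SE 0.25, adjusted p = 0.00561). RNASE3, SERPINB1 and CST7 rose by 1.49, 1.47 and 1.07. MPO, the myeloperoxidase gene that marks early granulocytic cells, stood at 25.1, 19.4 and 17.9 FPKM with DMSO and at 4.04, 5.41 and 5.05 FPKM with ASLAN003. ELANE, which encodes neutrophil elastase, stood at 1153, 1186 and 1006 FPKM with DMSO and at 583, 621 and 613 FPKM with ASLAN003. Both were lower in each treated library, with little spread between those libraries, by -1.89 (SE 0.20, adjusted p = 0.00418) and -0.88 (SE 0.10, adjusted p = 0.00561). With 1 library left out, CST7 lost its call without DMSO library 2 or 3 (adjusted p = 0.0824 and 0.0788), and the other 6 genes named kept theirs. Leaving out DMSO library 2 or 3 left 4 genes of the list called higher.

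Integrins and other adhesion receptors, which let leukocytes leave the blood, were next. Of 21 tested genes of this list 7 rose and none fell, against 3.15% higher over all genes. The median was 0.50, and without ASLAN003 library 1, 6 rose, with a median of 0.38. ITGAM, which encodes CD11b, stood at 4.46, 4.01 and 2.42 FPKM with DMSO and at 28.0, 19.7 and 13.7 FPKM with ASLAN003. ITGAX, which encodes CD11c, stood at 4.05, 1.90 and 2.34 FPKM with DMSO and at 30.2, 10.4 and 7.77 FPKM with ASLAN003. PECAM1, which encodes CD31, stood at 26.0, 20.2 and 20.5 FPKM with DMSO and at 165, 109 and 97.0 FPKM with ASLAN003. All treated libraries were above all controls, and ASLAN003 library 1 was the highest each time. The changes were 2.18 (SE 0.29, adjusted p = 0.0069) for ITGAM, 2.00 (SE 0.45, adjusted p = 0.0461) for ITGAX and 2.4 (SE 0.21, adjusted p = 0.0013) for PECAM1; without ASLAN003 library 1 ITGAX changed by 1.45 (adjusted p = 0.0408). ITGB7 rose by 1.63 and ADGRE1 by 1.73, while ITGB2, the shared partner of CD11b and CD11c, differed by 0.50 (adjusted p = 0.0609). Calls of ITGAM, PECAM1 and ITGB7 held with any 1 library left out. ADGRE1 lost its call without ASLAN003 library 1 (adjusted p = 0.0611), and ITGAX and ADGRE1 lost theirs without 1 or more of DMSO libraries 1, 2 and 3 or ASLAN003 library 2 (adjusted p up to 0.154). For the list, 3, 4 and 3 genes were called without DMSO library 1, 2 or 3.

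Of 26 tested transcription factors of the myeloid lineage, 3 rose and none fell, against 3.15% higher over all genes. Median centring left 2, and 7 were called with histone, mitochondrial, ribosomal RNA and small RNA genes left out of the scaling. KLF4, a zinc finger factor of monocyte fate, stood at 5.61, 6.49 and 3.79 FPKM with DMSO and at 20.2, 16.4 and 15.4 FPKM with ASLAN003, a change of 1.56 (SE 0.22, adjusted p = 0.00911) with no overlap. IRF5, known for inflammatory gene control in macrophages, rose by 1.10 (adjusted p = 0.0163) and TFEC by 1.01 (adjusted p = 0.049). The lineage-defining factors were not called: SPI1, which encodes PU.1, stood at 117, 128 and 101 FPKM with DMSO and at 228, 171 and 151 FPKM with ASLAN003, a difference of 0.65 (adjusted p = 0.0651). IRF8 differed by 0.42 (adjusted p = 0.106), CEBPB by 0.48 (adjusted p = 0.35) and CEBPA by 0.08 (adjusted p = 0.72). Among 17 tested NF-kB and inflammatory mediator genes, IL1B rose from 1.07, 1.72 and 1.81 FPKM to 11.0, 6.95 and 5.02 FPKM, a change of 1.73 (SE 0.31, adjusted p = 0.0202), and its natural antagonist IL1RN rose by 1.15 (adjusted p = 0.0146). TXNIP, an inhibitor of thioredoxin that follows glucose supply, rose by 1.31 (adjusted p = 0.0267) and the leukaemic stem cell antigen gene CLEC12A by 1.56 (adjusted p = 0.0376). Leaving out any 1 DMSO library left 1 transcription factor called. KLF4 alone of these 7 called genes kept its call with any 1 library left out. The others lost it without at least 1 DMSO library, and TFEC also without ASLAN003 library 1 (adjusted p = 0.0869), 2 or 3, with adjusted p from 0.0571 to 0.168 over all losses.

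MHC class II genes, which present peptides to CD4 T cells, were 13 in the list. Of these 8 were tested and 5 rose, against 3.15% higher over all genes. The median change was 1.21, and without ASLAN003 library 1, 3 rose, with a median of 1.09. HLA-DRA, the alpha chain of every HLA-DR dimer, stood at 1.87, 3.06 and 5.11 FPKM with DMSO and at 19.9, 19.1 and 21.5 FPKM with ASLAN003. CIITA, the coactivator that class II transcription depends on, stood at 0.51, 0.77 and 2.22 FPKM with DMSO and at 5.29, 6.61 and 4.37 FPKM with ASLAN003. CD74, which encodes the invariant chain that guards the peptide groove, stood at 123, 134 and 133 FPKM with DMSO and at 240, 256 and 220 FPKM with ASLAN003. The treated libraries were close to each other in all 3 genes, library 1 included, and none overlapped the controls. The changes were 2.35 (SE 0.27, adjusted p = 0.00561) for HLA-DRA, 1.63 (SE 0.34, adjusted p = 0.0379) for CIITA and 0.87 (SE 0.11, adjusted p = 0.00628) for CD74. HLA-DQB1 rose by 1.85 (adjusted p = 0.0267) and HLA-DMA by 1.34 (adjusted p = 0.0453). HLA-DRA and CD74 kept their call with any 1 library left out, while the other 3 did not: without ASLAN003 library 1 the adjusted p was 0.0627 for CIITA and 0.0856 for HLA-DMA, and leaving out DMSO library 1 or 2 or ASLAN003 library 2 or 3 left 2 genes called. Median centring left 3 called and quantile normalization 2. HLA genes differ between people and share long stretches of sequence, so their levels depend on how the reads were assigned.

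Of 17 tested MHC class I presentation genes 4 rose and none fell, against 3.15% higher over all genes. The median change was 0.57, and without ASLAN003 library 1, 5 rose, with a median of 0.38. B2M, the light chain of every class I molecule, stood at 1355, 1291 and 1496 FPKM with DMSO and at 2276, 2240 and 2066 FPKM with ASLAN003, a change of 0.67 (SE 0.10, adjusted p = 0.0125). HLA-B stood at 183, 167 and 162 FPKM with DMSO and at 551, 424 and 312 FPKM with ASLAN003, a change of 1.29 (SE 0.19, adjusted p = 0.00974). The groups did not overlap for either gene. HLA-E rose by 0.67. Of 24 tested interferon-stimulated genes, BST2 (0.71, adjusted p = 0.0459) and GBP2 (1.09, adjusted p = 0.0386) rose and none fell, against 3.15% higher over all genes. Without ASLAN003 library 1 a single gene was called, and median centring and quantile normalization left none. Leaving out any 1 DMSO library left 1 class I gene called, and ASLAN003 library 2 left 2; each of the 5 genes named lost its call without at least 1 library (adjusted p from 0.0508 to 0.168).

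Lysosomal genes formed a broad shift of small size. All 40 tested genes of the list had a fitted change above 0, 27 at an unadjusted p under 0.05 against 14.6% of all genes. At the adjusted threshold 9 rose, against 3.15% of all genes. The median was 0.51, and 0.44 without ASLAN003 library 1, where 8 rose. CTSZ, the cathepsin X gene, stood at 72.4, 79.4 and 79.7 FPKM with DMSO and at 149, 143 and 137 FPKM with ASLAN003, a change of 0.88 (SE 0.11, adjusted p = 0.00628). GRN, which encodes the lysosomal growth factor progranulin, stood at 115, 128 and 108 FPKM with DMSO and at 372, 224 and 219 FPKM with ASLAN003, a change of 1.17 (SE 0.20, adjusted p = 0.0172). Neither overlapped between groups. The protease gene CTSD rose by 0.91, the ceramidase gene ASAH1 by 0.76 and the acid lipase gene LIPA by 0.78. Under the other scalings 36 to 40 of the 40 genes were above 0 and 4 to 18 were called. CTSZ kept its call with any 1 library left out, whereas 1 gene of the list was called without DMSO library 1, 2 or 3 and 6 without ASLAN003 library 3; LIPA lost its call without ASLAN003 library 1 (adjusted p = 0.056).

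Of 13 tested iron and haem genes 3 rose and 1 fell, against 3.15% higher and 0.916% lower over all genes. FTL, the light chain of the iron store ferritin, stood at 1406, 1419 and 1403 FPKM with DMSO and at 2506, 2152 and 1927 FPKM with ASLAN003, a change of 0.63 (SE 0.12, adjusted p = 0.022). FTH1, the heavy chain, rose by 0.67 (SE 0.11, adjusted p = 0.0165), and BLVRB, a biliverdin reductase, by 0.79 (adjusted p = 0.0448). TFRC, the transferrin receptor that imports iron and is high in dividing cells, stood at 84.3, 97.5 and 82.6 FPKM with DMSO and at 39.1, 49.3 and 61.2 FPKM with ASLAN003, a fall of -0.83 (SE 0.17, adjusted p = 0.0367). The other 9 were not called, and ASLAN003 library 1 was the farthest from the controls for FTL and TFRC. All 4 were called without ASLAN003 library 1 and none without DMSO library 1, 2 or 3 (adjusted p from 0.0824 to 0.154); BLVRB and TFRC also lost their call without ASLAN003 library 2 (adjusted p from 0.0773 to 0.0777).

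Falls were most numerous in genes of cytosolic ribosomal proteins, whose mRNAs are among the most abundant in a dividing cell. All 79 tested genes had a fitted change below 0, from -0.88 to -0.19, with a median of -0.56 against 0.09 over all genes. In all 79 the treated libraries lay below every control library, against 8.45% of all genes tested. At an unadjusted p under 0.05 there were 78, against 5.94% of all genes, and 32 passed the adjusted threshold, against 0.916% of all genes. RPS12 stood at 4579, 4921 and 4976 FPKM with DMSO and at 2068, 3147 and 3006 FPKM with ASLAN003, a change of -0.84 (SE 0.16, adjusted p = 0.0244). RPS21 stood at 2627, 2673 and 2428 FPKM with DMSO and at 1423, 1761 and 1374 FPKM with ASLAN003, a change of -0.77 (SE 0.12, adjusted p = 0.0129). Controls were tight for both, and ASLAN003 library 1 was the lowest for RPS12. Ribosomal protein genes together made up 34.0%, 34.7% and 34.4% of all listed FPKM in DMSO libraries 1, 2 and 3 and 22.9%, 28.1% and 26.2% in ASLAN003 libraries 1, 2 and 3. FPKM is relative to the whole library, so the scale on which other genes were compared can depend on these genes. Shares of summed FPKM are not shares of fragments, however. Rescaling without ribosomal protein genes moved the median of all genes by -0.05 log2 units.

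The number of ribosomal protein genes called depended on single libraries and on scaling far more than their direction did. It was 58 without ASLAN003 library 1 (median -0.42), 58 without library 2 and 9 without library 3, and 1, 0 and 0 without DMSO library 1, 2 and 3. RPS12, RPS21, RPL18 and RPL37 each lost their call without any 1 of the DMSO libraries, with adjusted p from 0.057 to 0.119, and RPL18 also without ASLAN003 library 3. Rescaling without ribosomal protein genes gave 53 calls, median centring 49 and quantile normalization 2, the last with 6 of 79 genes above 0 and a median of -0.17, nearer to 0 than those of the ribosome biogenesis (-0.40), ATF4 (-0.40) and translation factor (-0.24) lists under the same scaling; quantile normalization sets the most abundant genes of each library to common values. In many genes of this family, pseudogenes share almost the whole transcript, and reads assigned among the copies make single genes uncertain.

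**Figure D3:**
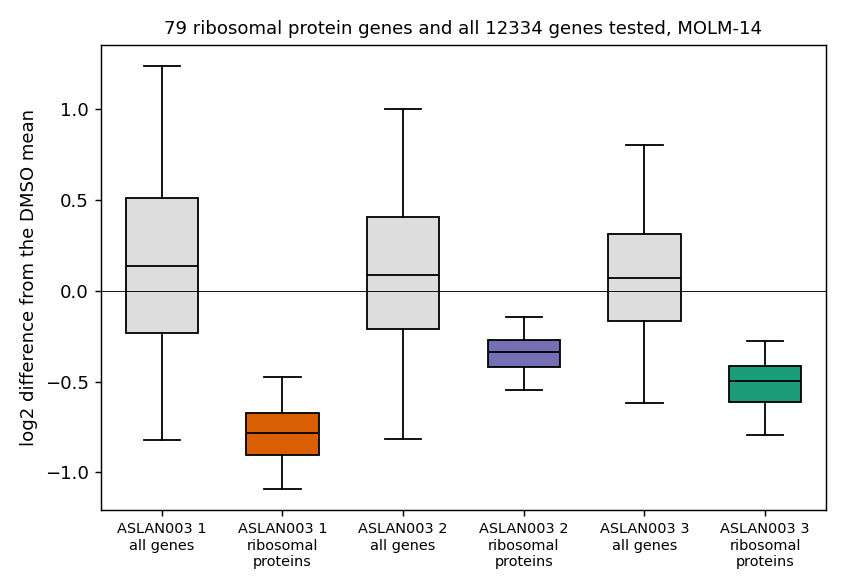
Log2 difference of each ASLAN003 library from the DMSO mean over all 12334 genes tested (grey) and over the 79 ribosomal protein genes (coloured), with boxes for quartiles, lines for medians and whiskers from the 5th to the 95th percentile. The ribosomal protein boxes lie wholly below 0 in all 3 libraries, with medians of -0.79, -0.34 and -0.50, while the medians of all genes lie just above 0.

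Genes of ribosomal proteins are known for a terminal oligopyrimidine tract, a C followed by a run of C and T at the first bases of the transcript, through which their translation is tuned to nutrients and growth signals. The starts of called ribosomal protein genes and of FBL are shown to make that shared feature visible, each from 15 bases before to 15 bases from the annotated start on, 5′ to 3′ on the gene's strand (RefSeq, GRCh38.p14), with the tract in capitals. S100A8 is shown as a gene that rose. The windows are RPS12 (chr6:132814554-132814583, plus strand), RPS21 (chr20:62387088-62387117, plus), RPL18 (chr19:48619164-48619193, minus), RPS16 (chr19:39435935-39435964, minus), RPLP1 (chr15:69452803-69452832, plus), FBL (chr19:39846365-39846394, minus) and S100A8 (chr1:153391174-153391203, minus).
RPS12: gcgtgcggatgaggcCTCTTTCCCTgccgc
RPS21: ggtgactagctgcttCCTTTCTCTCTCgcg
RPL18: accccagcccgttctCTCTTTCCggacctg
RPS16: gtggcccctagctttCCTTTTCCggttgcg
RPLP1: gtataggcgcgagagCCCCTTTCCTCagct
FBL: ccgcgcgcctgcgctCTTTTCCacgtgcga
S100A8: cacattcacctggttgagaaaccagagact
In the 6 windows with capitals the tract is marked from the annotated start, the position tried first, and runs for 7 to 12 bases. In RPS12, RPS21, RPL18, RPS16 and FBL the base just before the capitals is also C or T. S100A8 holds no tract by this rule. SNHG5, EEF1G and PES1, called lower and not shown, hold none either. In CBS, also called lower and not shown, a tract began just before the annotated start. Over all genes, a tract was counted where a C followed by 5 bases that are each C or T began within 5 bases of the annotated start, read on the gene's strand. Among the 63 of 79 ribosomal protein genes matched to the promoter table by symbol, 47 (74.6%) held one, against 1044 of 8614 matched genes tested (12.1%). Of the matched genes called higher, 22 of 281 (7.83%) held one, and of those called lower, 24 of 64 (37.5%). Outside the ribosomal protein genes the called falls were close to the whole table, with 5 of 41 (12.2%), and the 997 other genes with a tract had a median change of 0.04 against 0.10 for the 7554 without.

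A few genes that make or serve the ribosome fell. FBL, which encodes fibrillarin, the methyltransferase that modifies ribosomal RNA in the nucleolus, stood at 582, 599 and 594 FPKM with DMSO and at 202, 308 and 341 FPKM with ASLAN003. SNHG5, a non-coding RNA that hosts small nucleolar RNAs in its introns, stood at 269, 307 and 301 FPKM with DMSO and at 82.9, 166 and 129 FPKM with ASLAN003. Neither overlapped, and ASLAN003 library 1 was the lowest in both. Their changes were -1.09 (SE 0.18, adjusted p = 0.0156) and -1.26 (SE 0.22, adjusted p = 0.0185), and without ASLAN003 library 1 -0.87 (adjusted p = 0.00405) and -0.99 (adjusted p = 0.00841). Of 39 tested ribosome biogenesis and RNA polymerase I genes 2 fell, FBL and PES1 (-0.80), against 0.916% lower over all genes. The list had a median of -0.34, or -0.15 without ASLAN003 library 1. Of 40 tested translation factor genes 3 fell, EIF3L (-0.72), EEF1G (-0.63) and EEF1D (-0.55), against the same 0.916%. The list median was -0.26, and 6 fell without ASLAN003 library 1. All 6 genes named lost their call without DMSO library 1, 2 or 3 (adjusted p from 0.0634 to 0.154), EIF3L also without ASLAN003 library 2 (adjusted p = 0.0596), and EEF1G and PES1 without library 3.

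Amino acid and stress genes that the factor ATF4 is known to drive were lower where called. Of 36 tested genes 5 fell and none rose, against 0.916% lower over all genes. The median was -0.26, and without ASLAN003 library 1, 3 fell. CBS, the first enzyme of the route from homocysteine to cysteine, stood at 14.1, 14.3 and 11.3 FPKM with DMSO and at 0.72, 2.33 and 3.83 FPKM with ASLAN003, the largest fall among the leading genes at -2.23 (SE 0.36, adjusted p = 0.0145). DDIT4, an inhibitor of mTORC1 that stress induces, stood at 269, 243 and 253 FPKM with DMSO and at 106, 132 and 143 FPKM with ASLAN003, a change of -1.01 (SE 0.13, adjusted p = 0.00648). Treated and control libraries were well apart in both. PHGDH, the first enzyme of serine synthesis, fell by 0.71 on the log2 scale, GARS, a glycyl-tRNA synthetase, by 0.71, and STC2 by 1.41. XBP1, a transcription factor of the unfolded protein response, stood at 156, 183 and 199 FPKM with DMSO and at 88.5, 112 and 109 FPKM with ASLAN003, a change of -0.79 (SE 0.14, adjusted p = 0.0191). Other leading falls were GAL, a neuropeptide gene, from 20.8, 23.2 and 18.7 FPKM to 2.07, 8.01 and 5.90 FPKM (-1.92, SE 0.36, adjusted p = 0.0236), and BNIP3, a mitophagy receptor that hypoxia induces, from 22.4, 27.4 and 29 FPKM to 9.89, 9.53 and 11.8 FPKM (-1.25, SE 0.17, adjusted p = 0.00776). TBC1D30, C17orf75, KCNG1, NME7 and PTMAP2, a pseudogene, were lower by -2.13, -1.41, -1.38, -1.31 and -1.21. The lowest point of all tested genes, AP003391.1, was at 10.2, 24.9 and 72.5 FPKM with DMSO and listed at 0 in the 3 treated libraries; it was singled out after its value was seen, and no fold is given. Leaving out DMSO library 1, 2 or 3 left 1 gene of the ATF4 list called each time, and ASLAN003 library 2 left 2. DDIT4 alone of the 13 genes from CBS to PTMAP2 kept its call with any 1 library left out. The others lost theirs without at least 1 DMSO library (adjusted p from 0.0565 to 0.203). GARS, STC2, C17orf75, KCNG1, NME7 and PTMAP2 also lost it without ASLAN003 library 1 (adjusted p from 0.0607 to 0.0785), 7 genes without library 2 and 3 without library 3.

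Of 16 tested genes of the targeted pathway, 1 was called. DHODH, on chromosome 16 at 72008588 to 72027664, stood at 16.1, 16.2 and 15.03 FPKM with DMSO and at 9.40, 12.7 and 19.6 FPKM with ASLAN003. The treated libraries lay on both sides of the controls, and the difference was -0.23 (SE 0.24, adjusted p = 0.658), or 0.01 without ASLAN003 library 1. The drug acts on the enzyme, so this level is not a check of the treatment. UMPS, the enzyme that turns orotate into UMP, stood at 58.5, 62.8 and 68.8 FPKM with DMSO and at 36.0, 34.5 and 46.6 FPKM with ASLAN003, a fall of -0.70 (SE 0.15, adjusted p = 0.0433). CAD, which carries the first steps of the route, differed by -0.30 (adjusted p = 0.366). UMPS was the single called gene of this list, which covers the route and CTP and dTMP synthesis and had a median of -0.10. With histone, mitochondrial, ribosomal RNA and small RNA genes left out of the scaling, UMPS was not called (adjusted p = 0.064), RRM2 (0.59) and CMPK1 (0.61) were called higher, and the median was 0.03. Further members were not called: CTPS1 differed by -0.05, CTPS2 by -0.28, TYMS by 0.00, RRM1 by -0.10, RRM2 by 0.46 (adjusted p = 0.0905) and RRM2B by 0.69 (adjusted p = 0.0991). CMPK1 differed by 0.48, CMPK2 by 0.49, NME1 by -0.41, NME2 by -0.20, DUT by -0.13, DCTD by -0.11 and DTYMK by 0.05, all with adjusted p above 0.1. Of 15 tested salvage and breakdown genes 3 rose, against 3.15% higher over all genes. They were DPYD, which starts the breakdown of uracil and thymine (1.2, adjusted p = 0.00974), SAMHD1, which hydrolyses deoxynucleotides (1.17, adjusted p = 0.00648), and TYMP, thymidine phosphorylase (0.77, adjusted p = 0.0364). SAMHD1 stood at 32.5, 43.3 and 43.8 FPKM with DMSO and at 86.6, 88.7 and 95.2 FPKM with ASLAN003, with no overlap. SAMHD1 kept its call with any 1 library left out. UMPS lost it without any of DMSO libraries 1 to 3 and without ASLAN003 library 1 (adjusted p = 0.0621) or 2, DPYD without DMSO library 2 (adjusted p = 0.0651), and TYMP without DMSO library 2 or 3 or any ASLAN003 library (adjusted p = 0.0529 without library 1). Of 17 tested purine synthesis genes none was called by limma, with 1 higher and 1 lower at an unadjusted p under 0.05.

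Of 17 tested HOXA cluster and cofactor genes, which the KMT2A fusion is known to drive in part, 1 was called. HOXA9, the homeobox gene most tied to this leukaemia, stood at 80.0, 66.3 and 61.4 FPKM with DMSO and at 68.9, 67.3 and 72.6 FPKM with ASLAN003, a difference of 0.02 (adjusted p = 0.963). MEIS1, its cofactor, stood at 15.2, 19.7 and 25.5 FPKM with DMSO and at 14.2, 19.2 and 19.5 FPKM with ASLAN003, a difference of -0.17 (adjusted p = 0.725). The ranges overlapped for both. HOXA5 was the called gene, from 10.4, 8.97 and 15.4 FPKM to 3.65, 4.05 and 5.98 FPKM, a fall of -1.17 (SE 0.26, adjusted p = 0.0454). It lost that call without any of the DMSO libraries and without ASLAN003 library 1 (adjusted p = 0.0768) or 2, with adjusted p up to 0.16. HOXA6 differed by -0.87 (adjusted p = 0.124, and 0.0345 without ASLAN003 library 1), HOXA7 by -0.45, HOXA13 by -0.32, HOXA11 by -0.26, HOXA3 by 0.23 and HOXA10 by 0.20. MEIS2 differed by -0.24, PBX2 by 0.35, PBX3 by -0.10, SOX4 by 0.32, MEF2C by 0.02, MLLT3 by 0.36 and KMT2A by -0.01. Among line markers, FLT3 differed by 0.21 (adjusted p = 0.323), CD33 by 0.10 (adjusted p = 0.733), CD4 by 0.40 (adjusted p = 0.0792) and KIT by 0.43 (adjusted p = 0.626).

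Few cell cycle genes and no p53 target passed the test with all libraries. Counts at an unadjusted p under 0.05 are given beside these lists, and over all genes that share was 14.6% higher and 5.94% lower. Of 33 tested mitosis genes none was called by limma, with 3 lower and 0 higher unadjusted and a median of -0.13; without ASLAN003 library 1, 2 fell, PLK1 and PRC1, named after their values were seen, and the median was -0.25. Of 37 DNA replication genes none was called, with 6 lower and 0 higher unadjusted. Of 21 tested genes of G1 cyclins, CDK inhibitors and the RB family 1 rose, CCND3 (0.71, adjusted p = 0.0491). Of 32 tested p53 target genes none was called, with 12 higher and 0 lower unadjusted, and the median was 0.40; with histone, mitochondrial, ribosomal RNA and small RNA genes left out of the scaling 3 were called higher. CDKN1A, the cell cycle inhibitor p21, stood at 160, 215 and 233 FPKM with DMSO and at 450, 334 and 280 FPKM with ASLAN003, a difference of 0.79 (SE 0.20, adjusted p = 0.059) with no overlap. MDM2 differed by 0.36 (adjusted p = 0.477). MYC stood at 292, 304 and 302 FPKM with DMSO and at 129, 259 and 274 FPKM with ASLAN003. All treated libraries were below the controls, but ASLAN003 library 1 carried most of the difference of -0.51 (SE 0.25, adjusted p = 0.294), which was -0.17 (adjusted p = 0.278) without it. Of 13 mitochondrially encoded protein genes and 39 nuclear respiratory chain genes none was called with all libraries, with 4 higher and 2 lower and with 0 higher and 2 lower at an unadjusted p under 0.05. Single calls in other lists were HK1 (1.02), JUN (1.25) and HIST1H2BK (0.81). These 3 and CCND3 each lost its call without any of the DMSO libraries, HK1 and JUN also without ASLAN003 library 1 (adjusted p = 0.0763 and 0.0587), and 3 and 2 of the 4 without library 2 or 3.

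**Figure D4:**
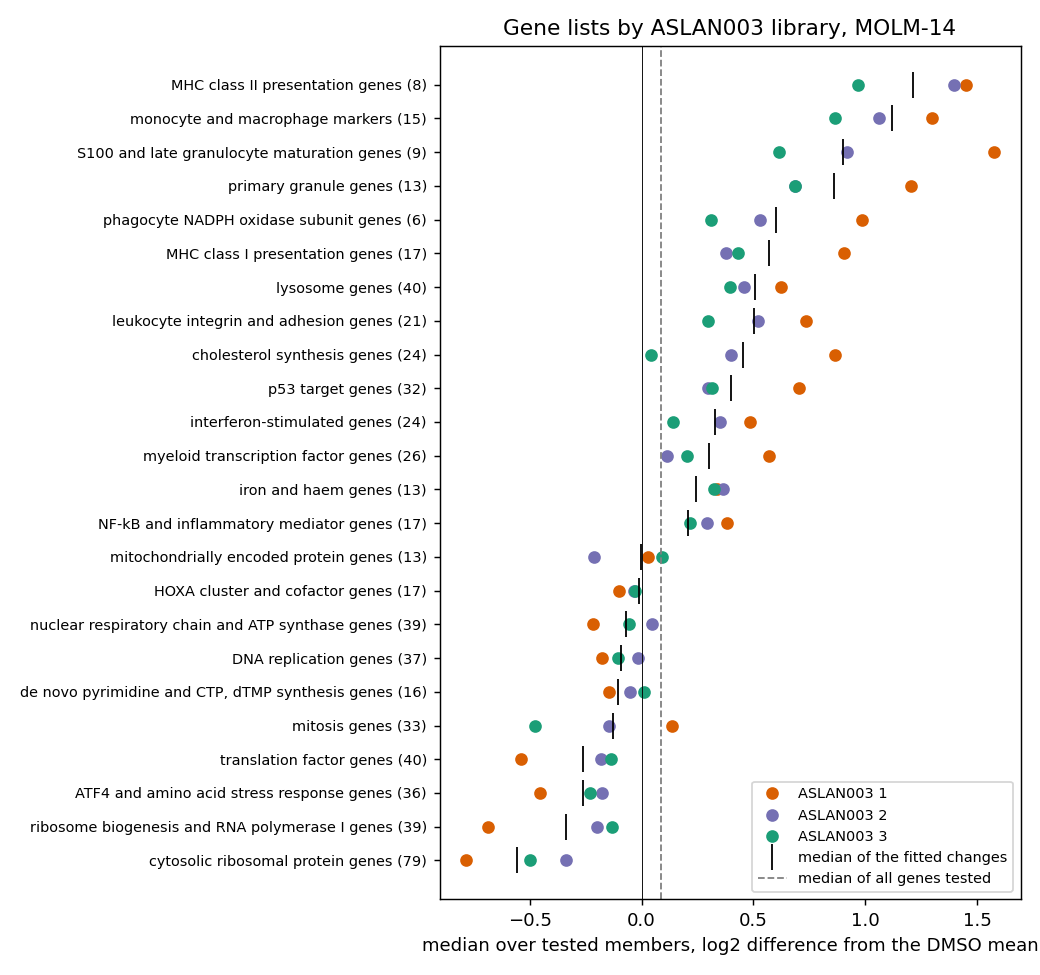
Median over the tested members of 24 gene lists (member numbers in brackets) of the log2 difference of each ASLAN003 library from the DMSO mean, with a bar for the median of the fitted changes and a dashed line for all genes tested. The MHC class II and monocyte lists are among the 3 highest of the lists plotted and ribosomal protein genes the lowest in all 3 libraries, and ASLAN003 library 1 is the most extreme in most lists.

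Markers of other cell types were mixed. The sums of the lymphoid, erythroid, dendritic, and mast cell and eosinophil lists were higher in every treated library than in every control. Megakaryocyte and non-blood sums overlapped. Summed over the listed genes in the table, lymphoid markers came to 167 to 179 FPKM with DMSO and 224 to 274 FPKM with ASLAN003, erythroid markers to 80.2 to 86.2 and 114 to 177, megakaryocyte markers to 50.8 to 59.5 and 52.1 to 74.8, dendritic cell markers to 516 to 581 and 678 to 810, mast cell and eosinophil markers to 11.5 to 13.6 and 24.6 to 50.4, and non-blood markers to 43.8 to 46.7 and 31.8 to 57.4 FPKM. Among the genes tested, NKG7 (1 of 6 lymphoid genes, 0.94), NFE2 (1 of 4 erythroid genes, 0.99) and PRG2 (1 of 3 mast cell and eosinophil genes, 1.40) rose, and NFE2 and the lymphoid marker CD4 are also expressed by myeloid cells. NFE2 made up most of the erythroid sum, at 50.7, 60.7 and 58.7 FPKM with DMSO and 143, 111 and 91.1 FPKM with ASLAN003. CD4 and NKG7 together made up most of the lymphoid sum. CD4 stood at 82.0, 75.4 and 75.1 FPKM with DMSO and at 107, 98.7 and 103 FPKM with ASLAN003. The sums therefore do not describe whole lineages. No dendritic, megakaryocyte or non-blood marker was called. The T cell marker CD3D and the epithelial marker EPCAM were listed at 0 in all 6 libraries, and the B cell marker CD79A was at or under 0.45 FPKM. PRG2 lost its call without ASLAN003 library 1 (adjusted p = 0.0506), NKG7 without ASLAN003 library 2, and all 3 without DMSO library 1, 2 or 3. In bulk RNA a change in the share of cells of a kind and a change in RNA per cell cannot be told apart.

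The genes in which ASLAN003 library 1 stood farthest from libraries 2 and 3 included non-coding RNAs, pseudogenes and read-through loci as well as protein-coding genes. PVT1, a non-coding RNA next to MYC, stood at 201 FPKM in ASLAN003 library 1, at 40.5 and 51.0 FPKM in libraries 2 and 3 and at 57.6, 60.9 and 48.9 FPKM with DMSO, so libraries 2 and 3 stood near the controls. MYO15B stood at 168 FPKM in library 1 against 38.0 and 51.4 FPKM, and ARHGAP33 at 65.5 FPKM against 13.0 and 11.0 FPKM. In the other direction DLEU1 stood at 4.57 FPKM in library 1 against 15.7 and 18.2 FPKM, NUBPL at 1.45 against 7.23 and 6.93 FPKM, and SNRPE, a core protein of the splicing machinery, at 103 against 372 and 331 FPKM. None of these 6 was called by limma, either with all libraries or without ASLAN003 library 1 (adjusted p from 0.3095 to 0.9519 without it). Other genes picked for a wide gap of library 1 were called by limma. S100A8 was called in both fits (adjusted p = 0.0141, and 8.29e-05 without library 1). The pseudogene SMG1P4 was called without library 1 alone (adjusted p = 0.0224, and 0.389 with all libraries). A wide gap also adds to the spread among treated libraries, which makes a call with all libraries harder. Estimated depth did not set library 1 apart, at 17600000, 17900000 and 17550000 fragments in ASLAN003 libraries 1, 2 and 3, and mitochondrially encoded genes made up 5.55% of listed FPKM in library 1, 4.21% in library 2 and 5.03% in library 3, against 4.04% to 4.30% with DMSO. Their part in the spread was not tested.

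The response was set against that of KG-1 by testing the difference of the 2 changes over all 12 libraries, in which 1137 genes (9.22%) were called, 587 with the lower change in KG-1 (4.76%) and 550 with the higher (4.46%). Without MOLM-14 ASLAN003 library 1 the share was 17.7%. Cholesterol synthesis genes were one list in which many genes differed. In MOLM-14 the list median was 0.45, and 22 of 24 tested genes had a change above 0, against 7399 of 12334 over all genes. Of the 24, 2 passed the test, against 3.15% higher over all genes. SC5D rose from 10.5, 7.06 and 11.95 FPKM to 23.2, 23.8 and 19.9 FPKM (1.13, SE 0.21, adjusted p = 0.0236), and MSMO1 by 0.99 (adjusted p = 0.0392). In KG-1 the median of the same genes was -0.72. The difference between lines passed the test in 15 of 24 genes, each with the KG-1 change below the MOLM-14 change, against 4.76% of all genes. HMGCS1, which makes HMG-CoA, changed by 0.47 in MOLM-14 and -2.07 in KG-1, a difference of -2.54 (SE 0.36, adjusted p = 0.00154). INSIG1, a sterol sensor that SREBP2 induces, changed by 0.25 and -2.18 (difference -2.43, adjusted p = 0.00181). The MOLM-14 side varied by library, with list medians of 0.87, 0.40 and 0.04 in ASLAN003 libraries 1, 2 and 3; 15 differences were called without library 1 too, while the list median in MOLM-14 was then 0.25 and 1 gene was called. SC5D and MSMO1 each lost their call without any of the DMSO libraries or without ASLAN003 library 2, and MSMO1 without library 1 (adjusted p = 0.0647). Leaving out ASLAN003 library 3, the library closest to the controls, raised the called rises from 2 to 6, and under the other scalings 18 to 22 genes were above 0 and 1 to 5 were called.

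**Figure D5:**
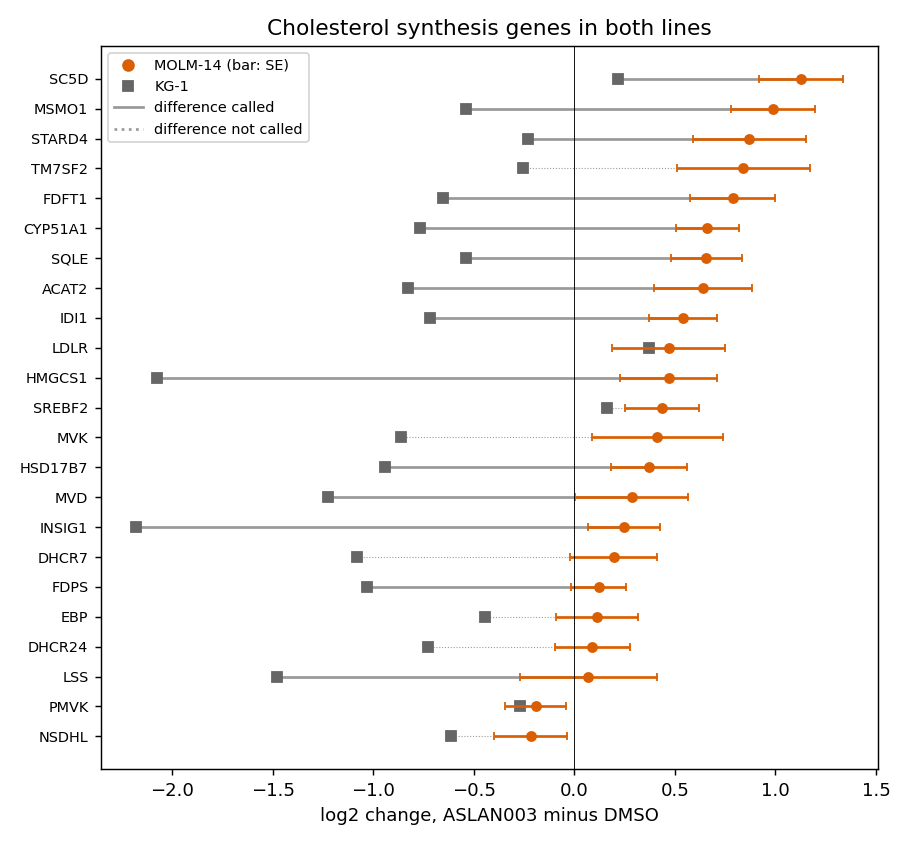
Log2 change after ASLAN003 of 23 cholesterol synthesis genes in MOLM-14 (circles, bar for the SE) and KG-1 (squares), joined by a solid line where the difference between lines passed the test and by a dotted line where it did not. Most circles lie right of 0 and most squares left of 0, and HMGCS1 and INSIG1 are the farthest apart.

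Among the 24 leading genes, the difference between lines passed the test in 8. HLA-DRA rose by 2.35 in MOLM-14 and changed by 0.57 in KG-1 (difference -1.78, adjusted p = 0.0343), MLPH by 2.67 and 0.12 (difference -2.55, adjusted p = 0.0126), and LGALS3 by 2.48 and 1.62 (difference -0.86, adjusted p = 0.033). S100A12 changed less in MOLM-14 than in KG-1, by 2.86 and 4.93 (difference 2.06, adjusted p = 0.0162), and SNHG5 fell less, by -1.26 and -2.62 (difference -1.36, adjusted p = 0.011). For S100A8 the changes were 3.67 and 5.38 (difference 1.71, adjusted p = 0.0963) and for S100A9 3.52 and 4.49 (difference 0.97, adjusted p = 0.346), so these differences did not pass with all libraries. Both passed without MOLM-14 ASLAN003 library 1, with adjusted p = 3.54e-05 for S100A8 and adjusted p = 0.00332 for S100A9, and the change was higher in KG-1. MPO differed by -0.16 between lines (adjusted p = 0.715). Of the ribosomal protein genes 12 of 79 differed between lines, all with the lower change in KG-1, and 57 did so without MOLM-14 ASLAN003 library 1.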

How the data were processed

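Total RNA of 3 ASLAN003-treated and 3 DMSO-treated MOLM-14 samples, and of 6 KG-1 samples, went into stranded total RNA libraries, read from both ends on a HiSeq4000, per the labels' protocols and the series' design text. The authors deposited 1 table of log2(FPKM + 1) values per gene and library, per the file headers and the values, which return FPKM in steps of 0.01. Per the submitters' processing notes, the tools were RSEM 1.2.25, STAR 2.4.2a and bcl2fastq 2.17.1.14, with GRCh38. No settings or annotation are stated in the labels. Of the gene IDs, 99.3% matched GENCODE 29, from which coordinates were taken. RSEM shares reads among similar transcripts, so genes with near-identical copies are uncertain.

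The deposited log2 values were tested as they stood, so fold changes of genes of low level are understated. Genes with at least 1 FPKM in 3 or more of the 6 libraries were tested with limma 3.58.1 in R 4.3.3 (moderated variance with trend and robust estimation, 6 libraries, no covariate, two-sided), and p-values were adjusted by Benjamini-Hochberg over all 12334 genes. A gene was called at an adjusted p under 0.05. The difference between lines was tested over all 12 libraries. Gene lists were described by counts and medians with no test. The genes named were the 12 largest called rises and falls of at least 2-fold that reached a mean of 5 FPKM in 1 group and did not overlap, up to 5 called members of each list in each direction, members of the pyrimidine, HOXA and line identity lists, a fixed set of myeloid and stress genes, the 8 genes in each direction with the widest gap of ASLAN003 library 1, and the leading genes without that library. The members, lists and rules were chosen with earlier results of these data known. The test was tried on simulated data with known answers. It called 2.99% of genes set to differ by 0.5 log2 units, 41.8% at 1 and 83.3% at 2. Most genes set to differ by 0.5 or 1 log2 units were therefore missed. Of all genes called there, 7.61% had been left unchanged. Some genes that these rules name are not reported here. No counts were used, depth was estimated from low FPKM values, and no count test was run. Alternatives were another pseudocount, other filters, median centring, quantile normalization, 2 rescalings, all 12 libraries in 1 fit, no trend or robust estimation, library weights, a replicate block and leaving out each library in turn.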

Additional observations from a re-analysis of the deposited data

Results flagged for a closer look

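Of 47 genes compared between the lines (24 leading genes of MOLM-14 and 23 cholesterol synthesis genes), 22 changed differently in KG-1 and MOLM-14 by the interaction test (limma, adjusted over all genes tested, 9.22% of which were called), and all 22 were also called without ASLAN003 library 1. Values are the KG-1 change minus the MOLM-14 change on the log2 scale. Among these cholesterol genes 14 differed: HMGCS1 by -2.54, INSIG1 by -2.43, LSS by -1.55, MSMO1 by -1.52, MVD by -1.51, ACAT2 by -1.47, FDFT1 by -1.44, CYP51A1 by -1.43, HSD17B7 by -1.31, IDI1 by -1.26, SQLE by -1.19, FDPS by -1.16, STARD4 by -1.1 and SC5D by -0.907. Among leading genes 8 differed: MLPH by -2.55, HLA-DRA by -1.78, SNHG5 by -1.36, BNIP3 by -0.942, LGALS3 by -0.855, C17orf75 by 1.29, HOXA5 by 1.42 and S100A12 by 2.06. The adjusted p ran from 0.00154 for HMGCS1 to 0.0498 for STARD4. The leading genes were chosen for their change in MOLM-14, so a smaller change in KG-1 is partly set by that choice.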

How the results depend on the processing

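None of the 95 called genes among those named changed direction under any alternative run, while uncalled genes near 0, such as HOXA9 and DHODH, did change sign. The counts of calls moved. The 388 higher and 113 lower genes became 231 and 45 with no filter on low values, 236 and 202 with median centring, 1314 and 456 with all 12 libraries in 1 fit, and 188 and 31 without trend and robust estimation. Quantile normalization gave 241 higher, rescaling with histone, mitochondrial, ribosomal RNA and small RNA genes left out 802 higher, and weighting libraries by their spread 231 lower. Differences between lines, 1137 in all, became 1993 with library weights. Leaving out 1 library gave 95 to 397 higher, 8 to 166 lower and 751 to 2181 differences; the lowest of each came without DMSO library 2, and the 2181 without ASLAN003 library 1. The cause was not tested, except that leaving out a library leaves fewer samples. Rescaling without ribosomal protein genes, chosen after seeing the data, gave 303 and 164. Of the 95, 72 lost their call without at least 1 library. The replicate block gave 486 higher, 152 lower and 1068 differences. Same-numbered libraries had correlations of deviations of 0.118, 0.00192 and 0.0463, and differently numbered ones -0.0956 to 0.0578. With 3 libraries per group these values cannot settle whether the numbers pair the libraries. Depth limits genes near 1 FPKM most.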
